A study of Homo sapiens with 3 samples.

Results

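Transcripts of 40 histone lysine methyltransferases and demethylases were examined in the NCI-H23 line, which derives from a human lung adenocarcinoma, after knockdown of USP16, which encodes a deubiquitinase that acts on histone H2A. The members were taken by gene symbol from a fixed list of 40 names, each of which matched 1 of the 50868 genes in the count files. They comprise 24 methyltransferases of the SET-domain and DOT1L families, called writers here, and 16 demethylases, called erasers. The study has 1 library from NCI-H23 cells transfected with control siRNA and 2 libraries from NCI-H23 cells transfected with siRNA against USP16, named library 1 and library 2 after their labels. The labels do not say whether those 2 are different siRNAs or separate cultures, so p-values measure the spread between these libraries, which may be technical. The column of library 2 has the number 6 in its header where the label has 2.

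Methyl groups on histone lysines are placed by SET-domain enzymes, and by DOT1L at lysine 79 of histone H3, and are removed by the flavin-dependent KDM1 enzymes or by the JmjC-domain enzymes, which use iron and 2-oxoglutarate. Methylation at H3K4 marks promoters and enhancers, H3K36 and H3K79 methylation lies over transcribed gene bodies, H3K9 methylation is found in heterochromatin, and H3K27 methylation is placed by Polycomb enzymes. No H3K27 or H4K20 writer is among the 40 members, whereas erasers of both residues are. Some of the SET proteins (KMT2E, SETD3, SETD5, SETD6, SETD7, SMYD2 and SMYD3) are grouped apart below, because their main known substrates are not histones or their histone site is unsettled.

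USP16, the targeted gene, was counted 632 times in the control, 109 times in library 1 and 245 times in library 2. Its level was 83.8% lower in library 1 and 66.8% lower in library 2 than in the control (edgeR, adjusted p = 0.561 over all genes). The libraries held 14007161, 13956382 and 15071179 counts, and the members took 0.474% to 0.479% of them. The mitochondrial share of counts was 8.56% in the control against 7.41% and 7.33% after knockdown. Of 6 epithelial markers, all had counts, with a summed level of 409 CPM (counts scaled to library size, as defined by edgeR) in the control, 239 in library 1 and 365 in library 2. Within that list EPCAM alone was higher after knockdown, at 2.85, 11.4 and 14.9 CPM. KRT8, KRT18, KRT7, KRT19 and CDH1 were each lower in both knockdown libraries. Of these, KRT18 was at 218, 140 and 216 CPM and CDH1 at 10.7, 2.75 and 5.98 CPM. The surfactant genes SFTPB and SFTPC, which mark alveolar cells, had 0 counts in each library, and the 4 lung lineage markers summed to 1.22 to 1.95 CPM. Leukocyte and endothelial markers summed to at most 8.96 and 0.77 CPM. CD3E, PTPRC and PECAM1 had at most 1 count in any library. Fibroblast markers summed to 54.5 to 70.8 CPM, mostly from COL1A1, and neuroendocrine markers to 15.2 to 16.5 CPM, mostly from SYP. The part of these differences in the results that follow was not tested. Fewer cells of a type and less RNA per cell cannot be told apart in bulk RNA.

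Counts are listed below in the order control, library 1, library 2, and pairs of log2 changes compare library 1 and then library 2 with the control. Both changes share the same control library, so their likeness is no replication of the control. All 40 members passed the filter on low counts, each with a count of at least 132 in every library.

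One member, SETD7, was at least 2-fold from the control in both knockdown libraries. A 2-fold higher level in both was found for 1 member and for 3.75% of all genes tested. A 2-fold lower level in both was found for 0 members and for 1.68% of all genes. Of the 10132 genes with a mean count at least that of the lowest member, 119 were 2-fold higher and 102 were 2-fold lower in both. SETD7 encodes a SET-domain enzyme that monomethylates H3K4 in vitro and many non-histone proteins. It had 339, 1499 and 1473 counts. Both knockdown libraries lay far above the control and close to each other. With exact Poisson 95% intervals, these are 25.5 CPM (22.8 to 28.3), 105.8 CPM (100.5 to 111.3) and 94.7 CPM (89.9 to 99.7). These are ratios of 4.15 (exact binomial 95% interval 3.69 to 4.69) and 3.72 (3.30 to 4.20) to the control, where the intervals cover counting error only. The mean log2 change was 1.97 ± 0.11 (SD, n = 2), which ranks 170 of 17287 genes from the highest. The edgeR quasi-likelihood test gave an unadjusted p of 0.00102 and an adjusted p of 0.561, so the gene did not pass at 0.05 with 1 residual degree of freedom.

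The adjusted p of SETD7 ranged from 0.0422 to 0.836 over the alternative settings. It passed with no filter on low counts, a setting in which edgeR called 0.254% of genes in either direction. DESeq2 gave an adjusted p of 0.0601 and called 0.081% of genes. SETD7 is a minus-strand gene of chromosome 4, spanning 139495941 to 139606699 (hg38), and its exons overlap those of no other gene in the files. Its 13916 bases of merged exon carried 1.83 CPM per kb in the control, 7.60 in library 1 and 6.81 in library 2. In the control SETD7 thus had the lowest level per length of the 40 members after KDM4C, while after knockdown it lay above SMYD3 and, in library 1, above SETD6 at 6.74, but below SMYD2 at 9.58 and 8.89. The sequences of the member with the highest and of the member with the lowest mean log2 change are shown, since they are the ends of the range over the 40. They run from 250 bases before to 50 bases after the RefSeq start site (GRCh38.p14), at chr4:139556170-139556469 on the minus strand for SETD7 and chr10:14878616-14878915 on the plus strand for SUV39H2. Capitals mark matches on either strand to 4 motifs, which share no bases here: the GC box (GGGCGG), the CCAAT box (CCAAT), the E-box (CACGTG) and the cAMP response element (TGACGTCA).

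SETD7: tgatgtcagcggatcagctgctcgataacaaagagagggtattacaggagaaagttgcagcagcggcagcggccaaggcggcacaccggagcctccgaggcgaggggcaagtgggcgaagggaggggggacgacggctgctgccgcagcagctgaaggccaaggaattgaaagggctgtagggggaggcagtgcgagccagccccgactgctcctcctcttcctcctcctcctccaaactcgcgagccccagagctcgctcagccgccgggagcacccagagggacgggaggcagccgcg
SUV39H2: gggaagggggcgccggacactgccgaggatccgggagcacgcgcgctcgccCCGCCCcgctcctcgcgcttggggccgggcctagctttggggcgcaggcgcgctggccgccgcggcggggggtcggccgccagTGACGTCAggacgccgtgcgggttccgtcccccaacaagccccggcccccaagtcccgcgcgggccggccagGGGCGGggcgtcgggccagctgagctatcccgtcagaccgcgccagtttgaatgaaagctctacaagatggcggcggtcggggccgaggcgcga

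The SETD7 window held none of the 4 motifs, which says no more than that these letters are not in this window. The SUV39H2 window held 2 GC boxes and 1 cAMP response element. A GC box was found in 45.0% of 35116 promoter windows of this length and in 37 of the 49 windows of the 37 members with an entry in the table. The cAMP response element was found in 1.8% of all windows and in 2 of the 49. The CCAAT box was found in 34.6% of all windows and in 18 of the 49. The E-box was found in 7.3% of all windows and in 9 of the 49 (18.4%), and some members have more than 1 window. The GENCODE model of SETD7 extends farther upstream than this RefSeq start, so the window stands for that start alone.

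**Figure D1:**
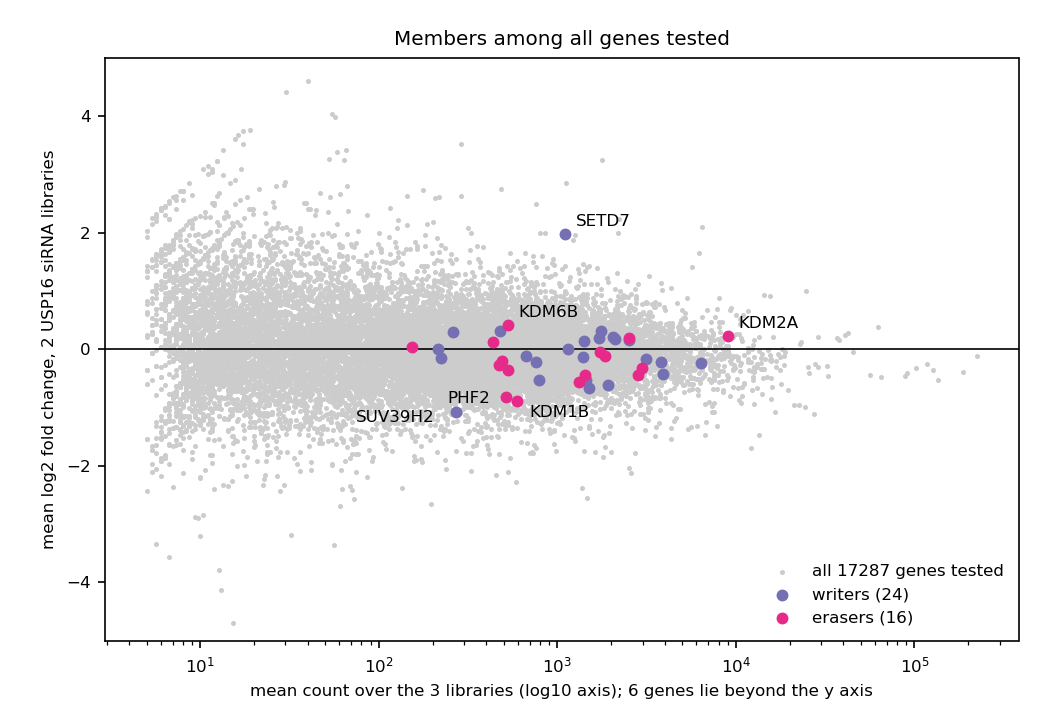
Mean log2 fold change over the 2 USP16 siRNA libraries (y axis) against the mean count over the 3 libraries (x axis, log10) for all 17287 genes tested (grey), with the 24 writers and 16 erasers in colour. SETD7 stands at 1.97, and the other 39 members lie between -1.08 and 0.41; 6 genes lie beyond the y axis.

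The other 39 members differed from the control by less. Their mean log2 changes ran from -1.08 for SUV39H2 to 0.41 for KDM6B. The median absolute mean change of the 40 members was 0.22, against 0.36 over all genes tested and 0.30 over the 10132 genes at the members' counts. The control lay below both knockdown libraries for 8 of the 40 members, against 33.4% of all genes tested. It lay above both for 18 members (45.0%), against 33.5% of all genes. Some of these were near the control in 1 library, as KMT2A and KDM5C were at -0.04 in library 2. Among the 10132 genes these shares were 29.5% and 37.0%. No member passed an adjusted p of 0.05 in edgeR, in which 0% of all genes were called higher and 0.0174% lower. DESeq2 called none either, and in each tool SETD7 was the 1 member of 40 with an unadjusted p under 0.05. Over all 17287 genes there were 844 in edgeR and 514 in DESeq2, so the members' share was not above the background.

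The median log2 change was -0.13 and -0.10 over the 40 members. Over all genes it was 0.00 in both libraries. Writers had medians of 0.02 and -0.12, with 7 of 24 higher and 10 lower in both libraries. The 24 include the 7 SET proteins with no single settled histone residue, of which 4 were higher and 2 lower in both. Erasers had medians of -0.28 and -0.03, with 1 of 16 higher and 8 lower in both. Over all genes tested 33.4% were higher and 33.5% lower in both, and among the 10132 genes 29.5% and 37.0%. The summed level of the writers was 2994 CPM in the control and 2751 and 2824 CPM in the knockdown libraries. That of the erasers was 1994, 1937 and 1821 CPM. Both sums were lower after knockdown on this scale, which is scaled by trimmed means of M-values. As an unscaled share of all counts, the 40 members took 0.474%, 0.476% and 0.479%, so the direction of the sum depends on the scaling.

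**Figure D2:**
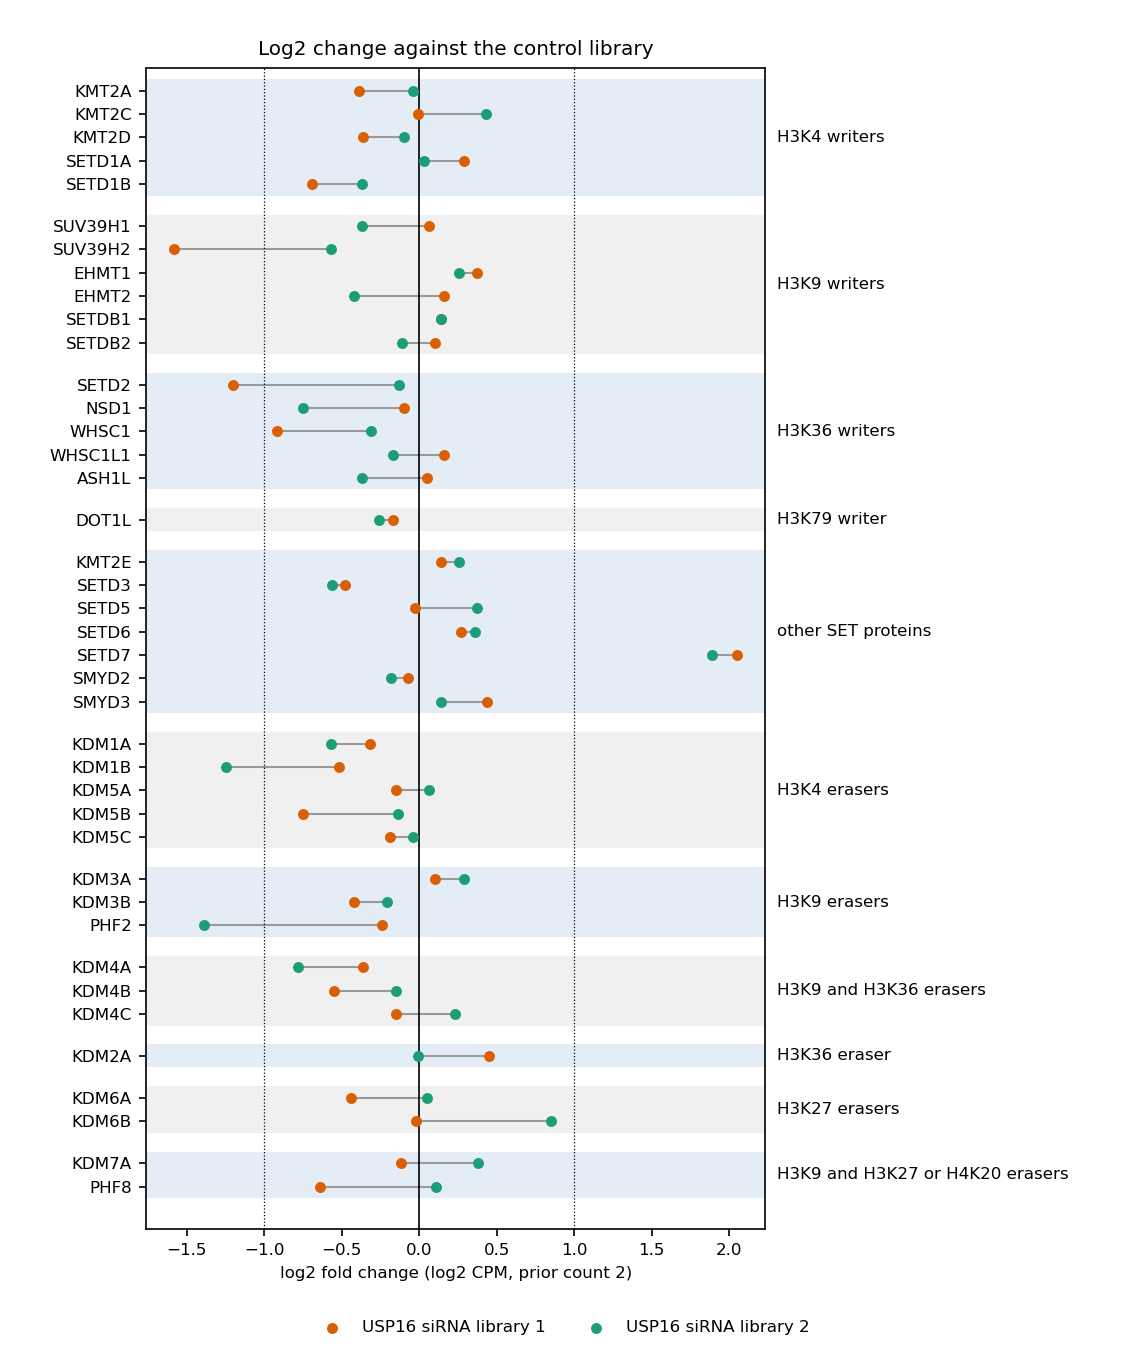
Log2 fold change of each of the 40 members against the control (x axis) in USP16 siRNA library 1 (orange) and library 2 (green), grouped by residue and by writer or eraser; dotted lines mark a 2-fold change. SETD7 has both points beyond the right line, and SUV39H2, SETD2, KDM1B and PHF2 each have 1 of their 2 points beyond the left line.

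Of the 5 H3K4 writers, both knockdown libraries lay below the control for 3 and above it for 1, against 33.5% and 33.4% of all genes tested. SETD1B, the catalytic subunit of a COMPASS complex that trimethylates H3K4 at promoters, had 1701, 1124 and 1536 counts, with changes of -0.69 and -0.37. Its paralog SETD1A, which serves the same kind of complex, had 2164, 2812 and 2581 counts (0.29 and 0.03). The 2 paralogs thus lay on opposite sides of the control. KMT2D, an enhancer H3K4 monomethyltransferase, had 6510, 5406 and 7107 counts (-0.36 and -0.10). In the control its level of 23.9 CPM per kb was the highest of the H3K4 writers, next to 23.8 for SETD1A, and after knockdown SETD1A was the higher. KMT2C, its partner at enhancers, had 1700, 1803 and 2683 (-0.01 and 0.43). KMT2A, the MLL1 enzyme that is rearranged in leukaemia, had 3861, 3147 and 4378 (-0.39 and -0.04). None of the 5 had an unadjusted edgeR p under 0.05.

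Of the 5 H3K4 erasers, 4 were below the control in both knockdown libraries, against 33.5% of all genes tested and 37.0% of the 10132 genes, and the medians were -0.32 and -0.14. No test was made of a group this small. KDM1B, a flavin-dependent H3K4 demethylase known from oocyte imprinting, had 794, 590 and 389 counts. Both knockdown libraries lay below the control, library 2 more so, with changes of -0.52 and -1.25 (edgeR, unadjusted p = 0.0837, adjusted p = 0.999). KDM1A, the LSD1 demethylase of the CoREST complex, had 3212, 2743 and 2519 counts (-0.32 and -0.57). The JmjC enzymes of the KDM5 family remove H3K4 trimethylation. KDM5B had 1601, 1013 and 1696 counts (-0.75 and -0.14), whereas KDM5A with 1635, 1564 and 1991 (-0.15 and 0.06) and KDM5C with 1817, 1700 and 2058 (-0.19 and -0.04) stayed nearer to the control. The 5 H3K4 erasers summed to 680, 537 and 556 CPM. That of the 5 H3K4 writers was 1197, 1008 and 1176 CPM.

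Of the H3K9 writers, SUV39H2 had the lowest mean log2 change of all 40 members. It encodes an enzyme that trimethylates H3K9 in heterochromatin and had 378, 133 and 296 counts. Both knockdown libraries lay below the control, but they were also 2-fold apart from each other, with changes of -1.58 and -0.57 (mean -1.08 ± 0.71, SD, n = 2; edgeR adjusted p = 0.999). Its exons overlap those of DCLRE1C by 159 bases on the opposite strand, and DCLRE1C had 101, 199 and 102 counts. The paralog SUV39H1 had 221, 246 and 199 counts (0.06 and -0.37). EHMT1 and EHMT2 encode GLP and G9a, which form a dimer that dimethylates H3K9. EHMT1 had 1401, 1923 and 1957 counts (0.37 and 0.26) and EHMT2 had 1355, 1617 and 1185 (0.16 and -0.42). SETDB1, which silences retroelements with TRIM28, had 1222, 1430 and 1578 counts (0.14 in both), and its paralog SETDB2 had 200, 228 and 216 (0.10 and -0.11). SETDB1 shares 948 bases of exon with CERS2 on the opposite strand, which had 2812, 1184 and 3856 counts.

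PHF2 had the lowest mean log2 change of the H3K9 erasers. It encodes a JmjC demethylase of H3K9 dimethylation and had 657, 593 and 291 counts, with changes of -0.24 and -1.39. Library 2 lay well below both other libraries, which differed little. KDM3A, an H3K9 demethylase induced in hypoxia, had 2128, 2421 and 3042 counts (0.10 and 0.29), while its paralog KDM3B had 3182, 2535 and 3213 (-0.42 and -0.21). The KDM4 enzymes remove trimethylation at both H3K9 and H3K36. KDM4A had 1587, 1319 and 1076 counts (-0.36 and -0.78), KDM4B had 569, 414 and 598 (-0.55 and -0.15), and KDM4C, the lowest of the 40 in level per length in the control, had 138, 132 and 189 (-0.15 and 0.23). KDM4A and KDM4B were lower in both knockdown libraries, and KDM4C was on both sides of the control. The pair of enzymes that also act on H3K27 or H4K20 was on both sides too. PHF8, which acts on H3K9 and H4K20 and whose gene is mutated in X-linked intellectual disability, had 479, 326 and 602 counts (-0.64 and 0.11), and KDM7A had 373, 366 and 566 (-0.12 and 0.38).

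Of the 5 H3K36 writers, both knockdown libraries lay below the control for 3 and above it for 0, against 33.5% and 33.4% of all genes tested, with medians of -0.10 and -0.31. SETD2, the enzyme that trimethylates H3K36 behind RNA polymerase II, had 1788, 830 and 1907 counts. Library 1 lay below both other libraries, with changes of -1.20 and -0.13. WHSC1, now named NSD2, an H3K36 dimethyltransferase activated in multiple myeloma, had 2314, 1305 and 2173 counts (-0.92 and -0.31). NSD1, the dimethyltransferase mutated in Sotos syndrome, had 4340, 4319 and 3012 (-0.10 and -0.75). SETD2 and WHSC1 were thus lowest in library 1, and NSD1 in library 2. ASH1L had 3128, 3446 and 2833 counts (0.05 and -0.37), and WHSC1L1, now NSD3, had 1073, 1276 and 1111 (0.16 and -0.17). The 5 summed to 950, 789 and 710 CPM. WHSC1L1 overlaps DDHD2 on the opposite strand, as DOT1L does PLEKHJ1, KMT2E does SRPK2 and KDM5A does CCDC77. KDM2A, a CXXC-domain eraser of H3K36 dimethylation at CpG islands, had 7503, 10948 and 8689 counts (0.45 and -0.01). It was the highest of the 40 members in each library, at 54.3, 74.4 and 53.8 CPM per kb.

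The H3K27 erasers had the control between their knockdown libraries, and the H3K79 writer lay slightly below it. KDM6B, an inducible H3K27 demethylase, had 381, 399 and 803 counts. Library 2 was above the other libraries, which were alike, with changes of -0.02 and 0.85. KDM6A, the UTX subunit of the KMT2C and KMT2D complexes, had 494, 386 and 596 counts (-0.44 and 0.05). DOT1L, which methylates H3K79 without a SET domain, had 781, 741 and 762 counts (-0.17 and -0.26).

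The SET proteins with no single settled histone residue had both knockdown libraries above the control for 4 of 7, SETD7 included, and below it for 2, against 33.4% and 33.5% of all genes tested. SETD3, an actin histidine methyltransferase, had 926, 708 and 733 counts (-0.48 and -0.56), and its 2 knockdown values lay close together below the control. SETD6, which methylates the NF-kB subunit RELA, had 377, 485 and 565 (0.27 and 0.36). Its exons share 1086 bases with CNOT1 on the opposite strand, a gene with 6646 to 9923 counts. SMYD3, which methylates the kinase MAP3K2, had 210, 303 and 271 counts (0.44 and 0.14), and its paralog SMYD2 had 654, 664 and 676 (-0.07 and -0.18). KMT2E, a member of the KMT2 family with little known enzymatic activity, had 1445, 1696 and 2019 (0.14 and 0.26). SETD5, whose gene is mutated in intellectual disability, had 1778, 1850 and 2680 (-0.03 and 0.37).

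**Figure D3:**
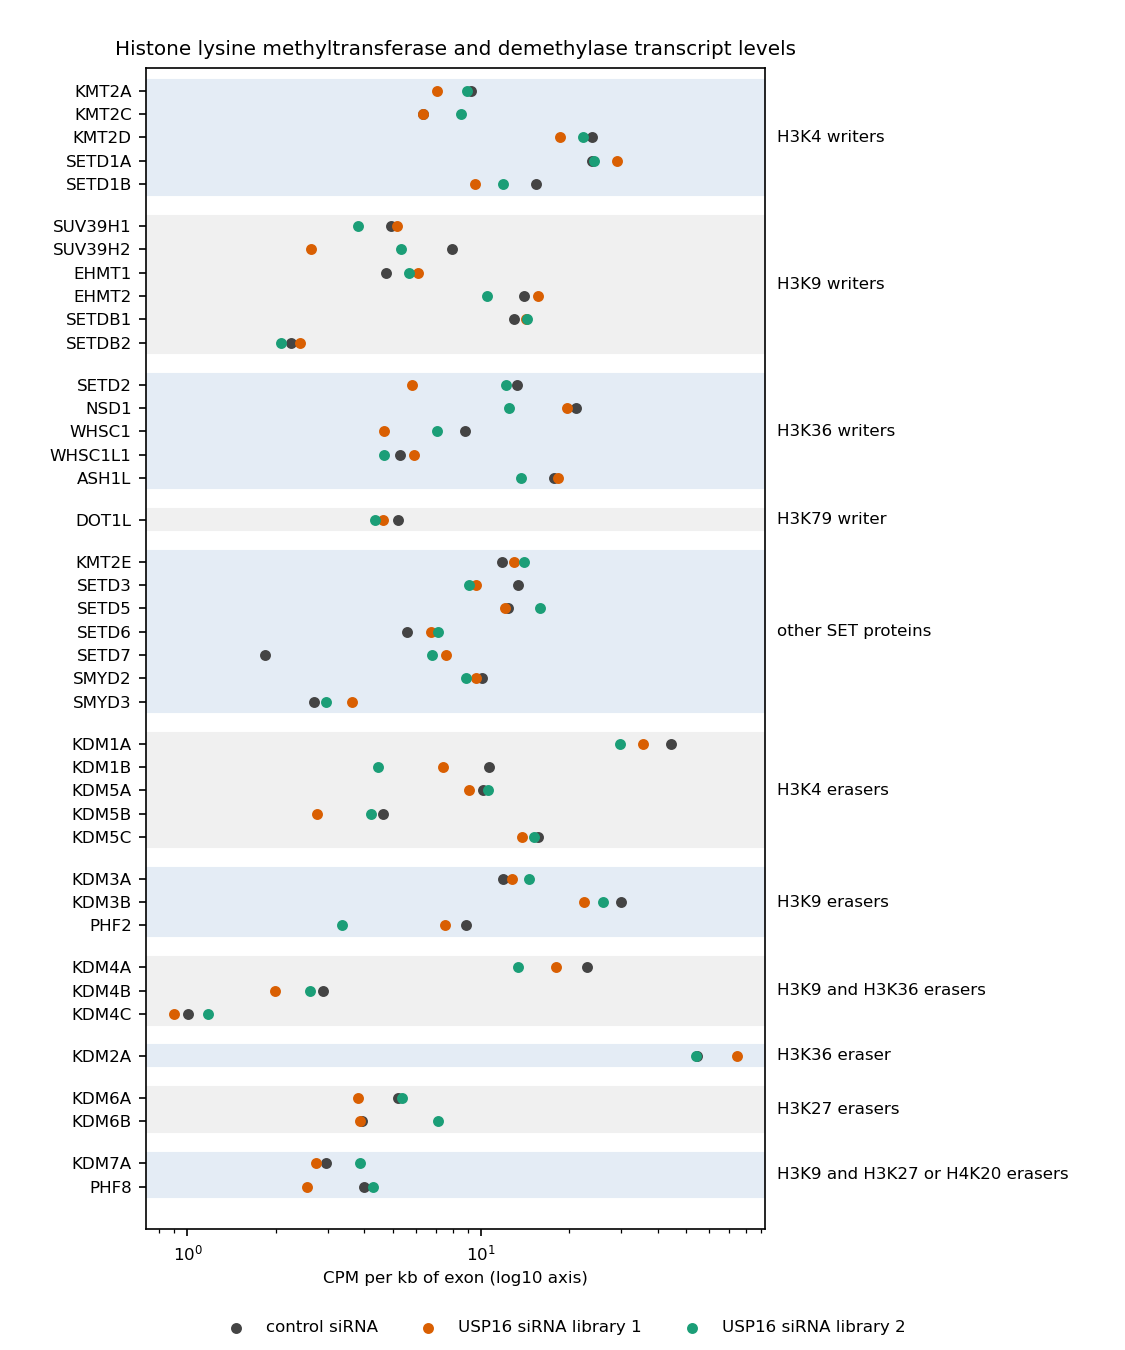
Level of each of the 40 members as CPM per kb of merged exon (x axis, log10) in the control library (grey) and USP16 siRNA libraries 1 (orange) and 2 (green), grouped by residue and by writer or eraser. KDM2A is highest, at 53.8 to 74.4, and SETD7 moves from 1.83 in the control to 7.60 and 6.81.

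The 2 knockdown libraries were at least 2-fold apart for 3 of the 40 members, against 15.7% of all genes tested and 9.85% of the 10132 genes. These were SETD2 and SUV39H2, which were lower in library 1, and PHF2, which was lower in library 2. KDM6B, at 0.87 higher on the log2 scale in library 2, and PHF8, at 0.75 higher in library 2, followed. USP16 itself was 1.02 higher in library 2 than in library 1 on the log2 scale. SETD7 differed by 0.16 between them. Each knockdown library is a single sample, so no gene's difference between them was tested.

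The balance within paralog pairs was read as the share of the second paralog in the pair's counts, with Wilson 95% intervals that cover counting error. SUV39H2 made up 63.1% of SUV39H1 and SUV39H2 counts in the control (59.2 to 66.9), 35.1% in library 1 (30.5 to 40.02) and 59.8% in library 2 (55.4 to 64.0). Library 1 stood apart here, and library 2 overlapped with the control. KDM3B made up 59.9% of KDM3A and KDM3B counts in the control (58.6 to 61.2) and 51.2% (49.8 to 52.5) and 51.4% (50.1 to 52.6) in the knockdown libraries. SETD1B made up 44.0% of SETD1A and SETD1B counts in the control (42.5 to 45.6), 28.6% in library 1 (27.2 to 30.0) and 37.3% in library 2 (35.8 to 38.8). For these last pairs both knockdown libraries lay below the control by more than counting error. KDM6B made up 43.5% of KDM6A and KDM6B counts in the control (40.29 to 46.85), 50.8% in library 1 (47.3 to 54.3) and 57.4% in library 2 (54.8 to 59.97). Its share lay above the control in both by more than counting error. KMT2D made up 79.3% of KMT2C and KMT2D counts in the control (78.4 to 80.2), against 75.0% (73.98 to 75.98) and 72.6% (71.7 to 73.5). This share too lay below the control in both by more than counting error. The EHMT2 share was 49.2%, 45.7% and 37.7%, and the KDM1B share 19.8%, 17.7% and 13.4%. The SETDB2 share was 14.1%, 13.8% and 12.04%, and the SMYD3 share 24.3%, 31.3% and 28.6%. With 1 control library the variation of these shares between control cultures is unknown.

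**Figure D4:**
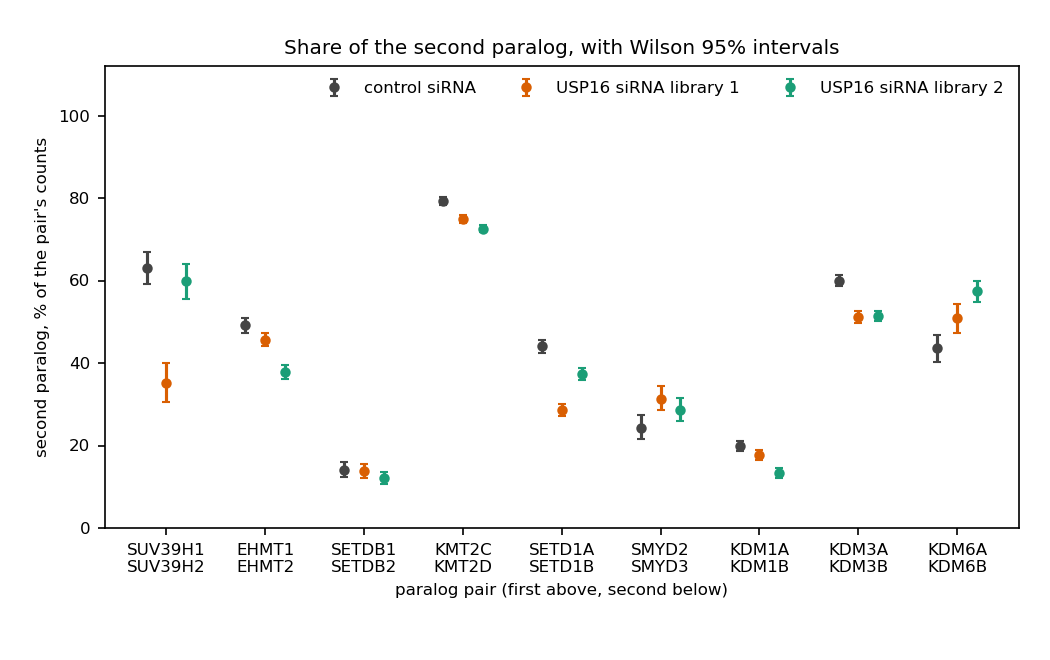
Share of the second paralog in the counts of each of 9 paralog pairs (y axis, percent) in the control and the 2 USP16 siRNA libraries; bars are Wilson 95% intervals. The SUV39H2 share is 35.1% in library 1 against 63.1% in the control, and the KDM3B share is near 51% in both knockdown libraries against 59.9% in the control.

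Long transcripts are common among the members, and 18 of the 40 lay in the longest of 10 equal classes of exonic length, above 10026 bases. In that class, all 1719 genes had median changes of -0.02 and 0.05, and the 18 members had medians of -0.12 and -0.07. Over the 10 classes, the median change of all genes ran from -0.05 to 0.08.

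Beyond the members, 70 genes of related complexes and reactions were read from fixed lists, with both knockdown libraries above the control for 24 (34.3%) and below it for 18 (25.7%), and medians of 0.03 and 0.02. Over all genes tested these shares were 33.4% and 33.5%, so the first count is at the background. No gene of these lists passed edgeR or DESeq2 over all genes, and 4 of the 70 had an unadjusted p under 0.05 in edgeR and 2 in DESeq2, against 844 and 514 of all 17287 genes, which are similar shares. The counts of the single lists that follow are likewise to be read against the shares over all genes. The 13 subunits and partners of COMPASS and MLL complexes had 3 higher and 3 lower. Their lowest mean log2 change was that of WDR82, the SETD1A and SETD1B subunit that docks on RNA polymerase II. WDR82 had 2836, 1328 and 2074 counts (-1.18 and -0.68), and RBBP5 was at 0.14 and 0.30 and PAGR1 at 0.39 and 0.16. In the LSD1 and CoREST list, with 3 of 10 higher and 2 lower, the deacetylase HDAC1 had 1581, 2841 and 3857 counts (0.75 and 1.06), and the scaffold RCOR1 was at -0.42 and -0.54. Partners and readers of H3K9 methylation had 6 of 11 higher and 2 lower. FAM208A, the TASOR subunit of the HUSH silencing complex, had 853, 1728 and 1554 counts (0.93 and 0.64), the SETDB1 partner ATF7IP was at 0.75 and 0.13, and TRIM28 was at -0.34 and -0.78. DOT1L and elongation partners had 2 of 10 higher and 3 lower, with ELL2 at 0.17 and 0.95, MLLT6 at -0.45 and -0.04 and SUPT6H at -0.12 and -0.20.

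Among 19 further lysine methyltransferases and demethylases, the control lay below both knockdown libraries for 9 and above both for 5, against 33.4% and 33.5% of all genes tested. KMT5A, the H4K20 monomethyltransferase, had 1394, 867 and 532 counts, with both knockdown libraries below the control (-0.77 and -1.61; edgeR, unadjusted p = 0.0267, adjusted p = 0.999). JMJD1C, a relative of KDM3A and KDM3B, had 851, 1766 and 2399 counts, with both above it (0.96 and 1.27; edgeR, unadjusted p = 0.0235, adjusted p = 0.999). KDM4D was at 1.16 and 0.68 on low counts of 57, 138 and 108. Of 7 cofactor genes, 1 was higher and 3 lower. IDH1, a cytosolic source of 2-oxoglutarate, had 1787, 479 and 1599 counts (-1.99 and -0.38), its mitochondrial paralog IDH2 had 687, 426 and 437 (-0.78 and -0.87), and GLUD1 was at -0.62 and -0.10.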

How the data were processed

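RNA of 3 NCI-H23 libraries (1 control siRNA, 2 USP16 siRNA) was measured by mRNA sequencing. The values deposited by the authors are raw counts per gene, whole numbers without normalization. Per the submitters' processing notes, HISAT2 2.0.4, StringTie 1.3.0 and build hg38 were used. The sources used here do not give the counting method, its strand setting or its annotation, so reads of overlapping genes cannot be separated with certainty. No pair of libraries was identical. Genes were filtered with filterByExpr and scaled by trimmed means of M-values, and all 17287 genes left were fitted in R 4.3.3 with edgeR 4.0.16 (quasi-likelihood test), and p-values were adjusted by the Benjamini-Hochberg method. The fit assumes that the lone control varies as much as the knockdowns. The script was tested on simulated data. Log2 changes use log2 CPM with a prior count of 2. Lengths and overlaps come from GENCODE release 29, which held 50111 of the gene identifiers, and promoters from RefSeq. DESeq2 1.42.0 and other filters, scalings and prior counts were tried. The members and lists were chosen with earlier results of these data known. Per-library counts were given for the 12 members with the largest mean change, the 5 whose knockdown libraries differed most, the highest of each residue group and paralog pairs, with the remaining members added so that all 40 are covered, and up to 3 genes of each other list, lowest or highest among those on one side of the control.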

Additional observations from a re-analysis of the deposited data

How the results depend on the processing

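With 1 control library and 1 residual degree of freedom, the design cannot give the variation of the control. SETD7 was at least 2-fold higher in each knockdown library under every filter, scaling, prior count and length setting run and in each library alone. The number of genes called moved with the settings. With no filter on low counts edgeR called 40 genes higher and 30 lower, with 1 member called (SETD7). With a mean count of at least 100 it called 0 higher and 1 lower, and the median over the members was -0.10. DESeq2 called 8 higher and 6 lower. With a mean count of at least 100, 11 members were higher and 16 lower in both libraries, against 8 and 18. Each member's mean log2 change was slightly higher in that setting, such as 2.01 against 1.97 for SETD7 and -0.17 against -0.21 for KMT2A. In the main setting KMT2C, KDM6B and SETD5 were at -0.01, -0.02 and -0.03 in library 1. KDM2A, KMT2A and KDM5C were at -0.01, -0.04 and -0.04 in library 2. Whether these are the members that changed side was not tested. In 1 library at a time, between 14 and 16 members were higher and between 24 and 26 lower than the control. In each, 2 were at least 2-fold lower: SUV39H2 and SETD2 in library 1, KDM1B and PHF2 in library 2. The shares over all genes with a mean count of at least 100 and in 1 library at a time were not counted. These numbers of members are therefore no result about the members. Leaving out each knockdown library in turn put the median over the members between -0.13 and -0.10, that of the writers between -0.12 and 0.02 and that of the erasers between -0.28 and -0.02. No paired analysis was possible because the 1 control library can be paired with no more than 1 knockdown library.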

Other observations

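The neighbours of SETD7 on chromosome 4 were chosen after its values were seen. RAB33B, 19.3 kb away and the nearest protein-coding gene tested, encodes a Golgi GTPase and had log2 changes of 0.10 and 0.54. NAA15, a subunit of an N-terminal acetyltransferase, was at -0.20 and 0.07. On the other side, MGST2 was nearest at 59.1 kb, with changes of -0.39 and -2.08 on low counts of 24, 19 and 5. MAML3, a NOTCH coactivator 110 kb away, had changes of -0.62 and -0.35. The 4 nearest tested protein-coding genes on each side had mean changes between -1.23, for MGST2, and 0.44, against 1.97 for SETD7.

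The 4 members on the X chromosome, SUV39H1, KDM5C, KDM6A and PHF8, had mean log2 changes of -0.15, -0.12, -0.20 and -0.27, against a median of -0.14 over all 40 members. For SUV39H1, KDM6A and PHF8 the control lay between the knockdown libraries.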
